A study of Mus musculus with 7 samples.

Results

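Long noncoding RNAs from a set named as abundant were followed through the cells of the mouse mammary gland. They were chosen by symbol: 8 RNAs were named, Malat1, Neat1, Meg3, Kcnq1ot1, Snhg6, Snhg12, Gas5 and Snhg1, and 6 of them were matched to a row among the 27998 genes of the count table. Gas5 and Snhg1 were not analysed here. The levels of the 6 RNAs were taken per mouse and cell type, beside the mitochondrial share and the number of UMIs of each cell. A UMI is a molecular tag that marks 1 captured RNA molecule, and a level in CPM is the UMIs of a gene divided by all UMIs of the mouse and cell type, times 1000000.

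The abdominal mammary glands of 3 young (3 to 4 months, Young A to C) and 4 aged (13 to 14 months, Aged A to D) nulliparous female mice were compared, with 1 library of single cells per mouse. The mice were virgin, of a mixed FVB, 129 and C57BL/6J background with no engineered allele or treatment stated, and were taken at diestrus, with the lymph nodes discarded. The table held 13684 cells under 13 cell type names, which are names of clusters: Myoepithelial cells, hormone-sensing (HS) and alveolar (AV) luminal cells, HS-AV cells with markers of both, fibroblasts, vascular and lymphatic endothelial cells, pericytes, Ma and Mb macrophages, dendritic cells, NK cells, and T and B cells. All 25 markers examined were highest in the type, or in 1 of the types, they mark, and the names were kept. The study named the clusters by canonical markers on these same cells, so this is not an independent check.

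Malat1 lies in nuclear speckles, bodies rich in splicing factors, and Neat1 is the scaffold of paraspeckles, nuclear bodies built from RNA and RNA-binding proteins. Meg3 and Kcnq1ot1 are imprinted: Meg3 is transcribed from the maternal copy of the Dlk1-Dio3 domain, and Kcnq1ot1 from the paternal copy of its domain, against the direction of Kcnq1. Snhg6 and Snhg12 are host genes whose introns release small nucleolar RNAs (snoRNAs), the guides of ribosomal RNA modification, while their spliced RNAs share features with transcripts for translation and are often removed by nonsense-mediated decay.

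The libraries count RNA from a poly(A) tail, or from a run of A, so the 3′ ends of the RNAs decide what is captured. The last 60 bases of the longest annotated transcript of each RNA are shown here, with the short Neat1 transcript beside the long one. They were read from GRCm38 at the ends annotated by GENCODE, and capitals mark the polyadenylation signal AATAAA.
Malat1, chr19:5795690-5795749, minus strand: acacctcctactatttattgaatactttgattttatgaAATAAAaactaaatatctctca
Neat1 long, chr19:5824708-5824767, minus strand: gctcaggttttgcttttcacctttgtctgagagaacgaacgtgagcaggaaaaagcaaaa
Neat1 short, chr19:5842307-5842366, minus strand: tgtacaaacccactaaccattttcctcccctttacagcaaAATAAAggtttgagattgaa
Meg3, chr12:109571667-109571726, plus strand: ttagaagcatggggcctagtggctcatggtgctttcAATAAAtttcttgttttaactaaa
Kcnq1ot1, chr7:143203458-143203517, minus strand: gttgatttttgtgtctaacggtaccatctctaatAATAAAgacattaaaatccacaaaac
Snhg6, chr1:9942023-9942082, minus strand: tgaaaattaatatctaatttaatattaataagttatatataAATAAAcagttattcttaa
Snhg12, chr4:132310965-132311024, plus strand: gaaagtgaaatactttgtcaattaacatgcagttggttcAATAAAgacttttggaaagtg
The signal stood in 6 of these 7 ends, and the long Neat1 end held neither AATAAA nor ATTAAA. Among 18927 annotated long noncoding transcripts, 39.2% held AATAAA or ATTAAA, searched on the RNA strand, in their last 60 bases. The 7 ends are of chosen transcripts, so they and this share are of unlike sets. Some shorter annotated transcripts of Malat1, Neat1, Meg3 and Snhg12 held neither signal. Runs of A inside a transcript can also be primed: the longest run was 12 bases in Malat1, 310 bases from its end, 12 in Snhg12, 16 in Meg3 and 41 in Kcnq1ot1, against 5 in Snhg6 and 7 in the long Neat1 transcript. The counts do not separate the short from the long Neat1 RNA.

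Malat1 (chr19:5795690-5802672) is on the minus strand, 22036 bases from Neat1 (chr19:5824708-5845478) on the same strand. Kcnq1ot1 (chr7:143203458-143296549, minus strand) lies with all its 93092 bases inside Kcnq1, which runs on the opposite strand. Whether the counting used strand is not given in the sources used here, so reads of Kcnq1ot1 and of unspliced Kcnq1 may not be told apart. Meg3 (chr12:109541001-109571726, plus strand) shares 3096 bases with Gm26906 on the other strand, Snhg6 (chr1:9941959-9944118, minus strand) shares 127 bases with Mcmdc2 on the other strand, and Snhg12 (chr4:132308623-132311024, plus strand) shares no bases with another annotated gene, the nearest being Trnau1ap, 739 bases away.

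A start feature of translated-machinery genes and snoRNA hosts is a run of C and T at the first base. A looser form was read for the members in the RefSeq start windows (GRCm38.p6). The longest run beginning at a C within 5 bases before or after the listed start was taken. Snhg12 has a run of 8 such bases there, in capitals in the 60 bases around its start.
Snhg12, chr4:132308648-132308707, plus strand: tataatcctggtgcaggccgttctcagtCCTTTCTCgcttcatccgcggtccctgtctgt
Runs of at least 5 C or T at this place occurred in 18.3% of 32851 start windows and in 40.4% of 89 windows of ribosomal protein genes. Meg3 had a run of 5 at 1 of its 2 listed starts and none at the other, and Malat1 and Kcnq1ot1 had runs of 1 and 2 bases. The GENCODE start of Snhg12, chr4:132308623, lies before the 60 bases shown, so RefSeq and GENCODE differ on it. The match is a description of the letters alone.

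The libraries held 6652599 to 16999625 UMIs and 1264 to 2865 cells per mouse. The median mitochondrial share was 3.18% to 3.68% in the young and 2.48% to 2.82% in the aged mice, and the median number of UMIs per cell was 4758.5 to 5253 in the young and 5583 to 7109.5 in the aged mice. Fibroblasts were 14.6% to 36.1% of the cells of the young and 1.09% to 7.34% of the cells of the aged mice. Of 13583 distinct barcodes, 101 occurred in more than 1 mouse. Age and library cannot be told apart, since each library held 1 mouse of 1 age.

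Malat1 alone gave 2427956 of the 83649527 UMIs, or 2.90%, and the 6 RNAs together gave 3.01%. It was captured in nearly every cell: 3 of 13684 cells had 0 Malat1 UMIs. The median cell spent 2.51% of its UMIs on Malat1 and the highest 19.99%. Per mouse, Malat1 took 2.95%, 3.63% and 3.89% of the UMIs of Young A to C and 2.70%, 2.55%, 2.53% and 1.99% of those of Aged A to D. These shares did not overlap, and they are over all cells, whose types were mixed in different proportions. Neat1 followed with 63110 UMIs and Meg3 with 13903, while Snhg6 (5637), Kcnq1ot1 (4289) and Snhg12 (4246) were at similar totals. These are numbers of 3′ tags and not levels per length.

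Malat1 was high in every cell type, from 19133 ± 6756 CPM (SD, n = 7 mice) in T and B cells to 47368 ± 14499 CPM (n = 6) in HS-AV cells. HS cells stood at 38288 ± 8070, pericytes at 37713 ± 7445 and fibroblasts at 35443 ± 7743 CPM, above AV cells with 27890 ± 9738 and Myoepithelial cells with 23116 ± 4451 CPM (n = 7 each). None of the 12 gaps between neighbours in this order exceeded the larger SD of the pair. Since the cell types are clusters of these same cells, the levels by type are a description with no test, here and for the other RNAs. Cells with more than 10% of their UMIs from Malat1 were 159 in all, and 21 of them were among the 273 HS-AV cells (7.69%), against 2.15% of HS and 0.519% of AV cells.

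**Figure D1:**
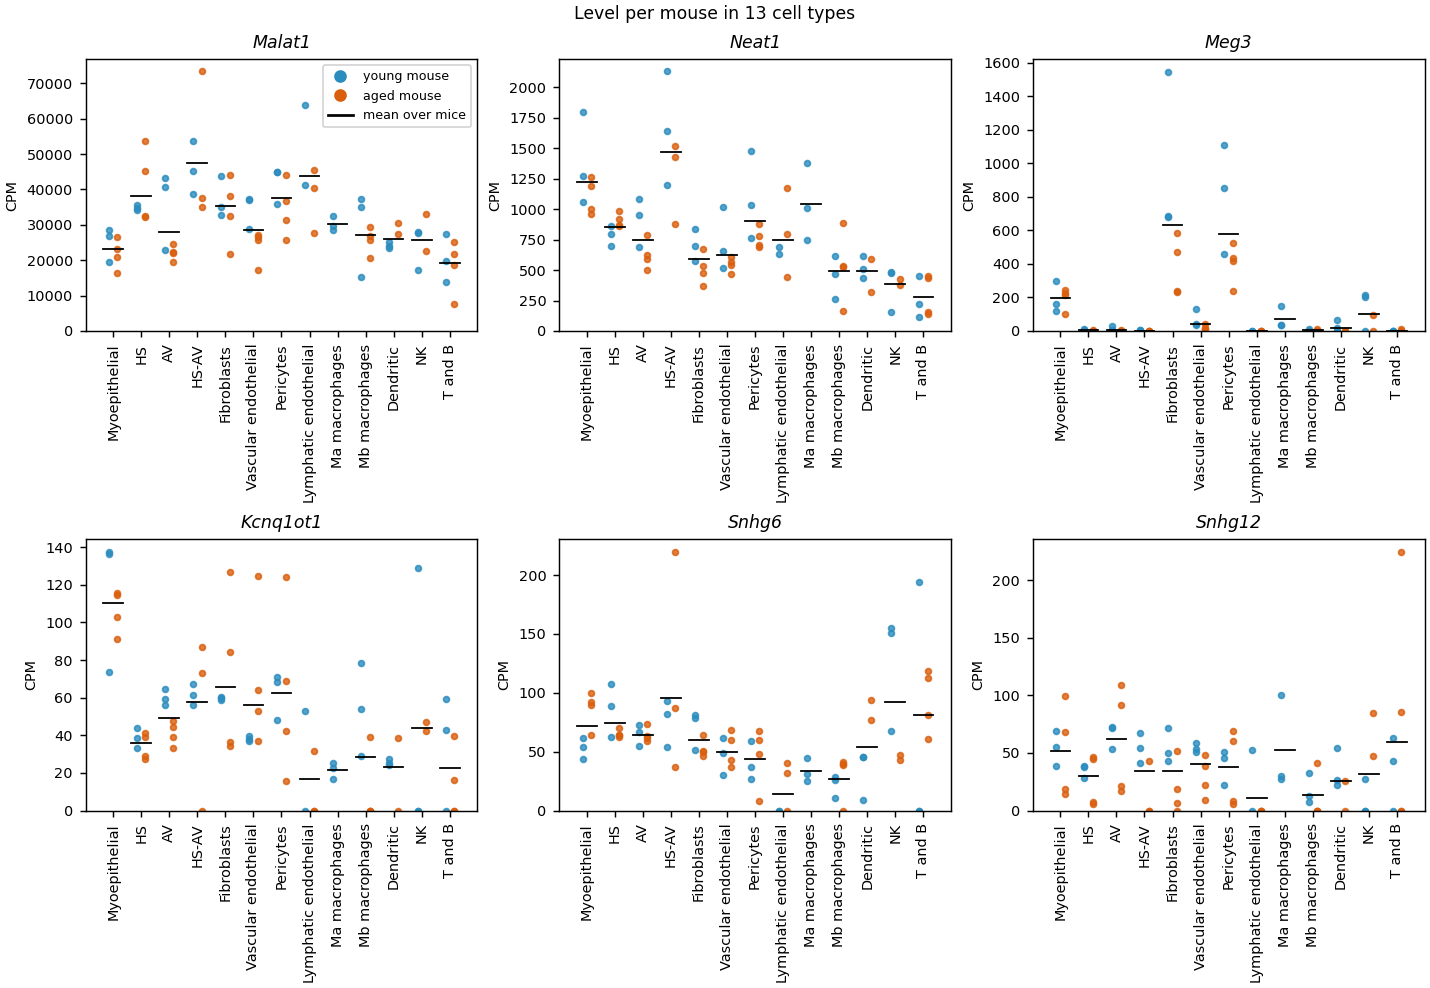
CPM of the 6 RNAs (vertical axes, linear, 1 panel each) in 13 cell types (horizontal axis); a point is 1 mouse with at least 3 cells of the type, blue for young and orange for aged, and the line is the mean over mice. Meg3 stands out in fibroblasts and pericytes and Kcnq1ot1 in Myoepithelial cells, while Malat1, Snhg6 and Snhg12 are spread over most types.

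Neat1 had a different order. HS-AV cells led with 1467 ± 423 CPM (n = 6) and Myoepithelial cells followed with 1221 ± 284 CPM (n = 7), then Ma macrophages with 1046 ± 315 CPM (n = 3, all young), pericytes with 904 ± 279 and HS cells with 854.8 ± 90.1 CPM. T and B cells were lowest with 282 ± 156 CPM, and again none of the 12 neighbouring gaps passed the larger SD. Myoepithelial cells were thus near the top for Neat1 and near the bottom for Malat1. The study had itself listed Neat1 among the genes high in HS-AV cells and in Ma macrophages on these same cells, so these positions are not independent evidence.

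Within the 6 mice that had HS-AV cells, Neat1 was higher in HS-AV than in HS cells in 6 of 6, with ratios from 1.03 to 3.05, and higher than in AV cells in 6 of 6, with ratios from 1.26 to 3.09. Malat1 was higher in HS-AV cells in 5 of 6 mice against HS and in 5 of 6 against AV cells, with median ratios of 1.20 and 1.55. The HS-AV cells came mainly from young mice, 12, 130 and 115 cells in Young A, B and C, and the 3 aged mice had 6, 6 and 4.

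Meg3 was highest in fibroblasts and pericytes. Fibroblasts held 634 ± 444 and pericytes 577 ± 300 CPM, Myoepithelial cells 195.4 ± 71.6 CPM (n = 7 each), and the other types had means of at most 102 CPM. The step from pericytes to Myoepithelial cells was the 1 gap of 12 that exceeded the larger SD, and it held in 7 of 7 mice. At least 1 Meg3 UMI was found in 74.3% of fibroblasts (Wilson 95% interval 72.3% to 76.1%), 57.9% of pericytes and 31.0% of Myoepithelial cells, with medians of 4414, 5065 and 4431.5 UMIs per cell. In AV cells, at a median of 6632.5 UMIs, the share was 1.43% (1.13% to 1.81%), and in HS cells 1.87%. After every cell was thinned to 2000 UMIs the shares were 62.4% in fibroblasts and 0.581% in AV cells. Lymphatic endothelial cells had a Meg3 UMI in 0 of 28 cells, which allows a share of cells with a UMI of up to 10.7% and sets no limit on cells that express it. These intervals and limits cover counting error only. Meg3 is also a member of the study's own fibroblast signature, chosen on these cells.

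Kcnq1ot1 was highest in Myoepithelial cells, with 110.2 ± 23.2 CPM, against 65.9 ± 31.6 CPM in fibroblasts, the next in order, and 36.10 ± 6.39 CPM in HS cells (n = 7 each). The gap to fibroblasts held in 6 of 7 mice and was the only 1 of 12 beyond the larger SD. At least 1 UMI was seen in 33.7% of Myoepithelial and 22.9% of fibroblast cells, and after thinning in 16.1% and 10.99%.

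The snoRNA host genes showed no such step: none of the 12 gaps of Snhg6 or of Snhg12 exceeded the larger SD. Snhg6 had 74.3 ± 17.5 CPM in HS, 72.2 ± 21.6 in Myoepithelial and 64.38 ± 6.75 in AV cells. Snhg12 had 62.5 ± 34.2 CPM in AV, 52.0 ± 30.4 in Myoepithelial and 29.81 ± 17.01 in HS cells (n = 7 each).

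Over the 13 type means, the genes most like each RNA among 4900 genes of at least 20 CPM were found by Pearson's r on log2(CPM + 10). The 13 points share the same libraries, and r is a description. Meg3 was followed by C1s1 (r = 0.938), Ccl11 (0.931) and Htra1 (0.930), a complement protease, a chemokine and a secreted protease. Kcnq1ot1 was followed by Nop58 (0.931), a core protein of box C/D snoRNA particles, Zzz3 (0.917) and Fam132a (0.906). Neat1 was followed by the kinesins Kif1b (0.900) and Kif1c (0.876), and Malat1 by Mrpl2 (0.846), Nisch (0.836) and Abhd16a (0.827). Snhg6 was followed by Zwint (0.934), Cdk4 (0.909) and Mmadhc (0.905), and Snhg12 by Golph3 (0.892), Zfos1 (0.876) and Taf11 (0.867).

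To ask what differs with age, UMIs were summed per mouse in 8 cell types and aged mice were compared with young ones with edgeR's quasi-likelihood test, adjusted by Benjamini-Hochberg over all genes of a fit. A gene was called at an adjusted p under 0.05 and at least 1.5-fold. Of 38 pairs of an RNA and a cell type that passed the filter on low counts, 3 were called: Snhg6 rose in Myoepithelial cells, Meg3 fell in AV cells and Kcnq1ot1 rose in vascular endothelial cells. At an unadjusted p under 0.05 there were 7 pairs. The same limit was met by 2716 of all 6740 genes in Myoepithelial, 1992 of 8457 in HS and 2550 of 11012 in AV cells. It was met by 1102 of 5513 genes in fibroblasts, 3198 of 7864 in vascular endothelial cells and 726 of 2601 in pericytes. Mb macrophages had 180 of 859 such genes, and T and B cells 61 of 457. In the same fits 27.6% of all genes were called in Myoepithelial cells, 6.16% in AV cells and 26.7% in vascular endothelial cells, with 1 of 6 members called in each. In the direction of the member, these were 12.8% (higher), 3.26% (lower) and 14.7% (higher). No member was called in HS cells (0 of 5, beside 6.26% of all genes), fibroblasts (0 of 6, 3.17%), pericytes (0 of 5, 11.8%), Mb macrophages (0 of 2, 1.16%) or T and B cells (0 of 2, 0.656%). No member had CPM without overlap between the ages in HS cells, pericytes, Mb macrophages or T and B cells, beside 22.0%, 26.6%, 23.4% and 14.2% of all genes. Over the 8 fits together, 7.89% of the pairs and 13.0% of all gene tests were called. Each p measures the spread between mice, and the fold changes are relative to the median gene: without TMM scaling the median of all genes moved by -0.05 (T and B cells) to -0.36 (vascular endothelial cells) on the log2 scale.

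**Figure D2:**
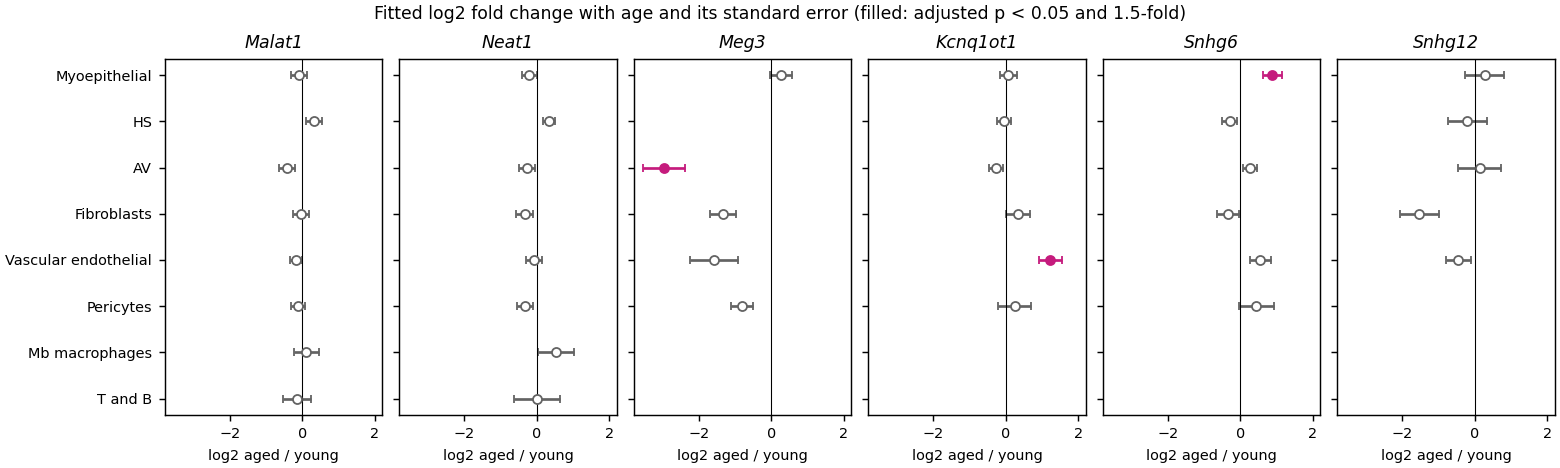
Fitted log2 fold change of aged over young mice (horizontal axis) with its standard error, for 6 RNAs in up to 8 cell types (vertical axis); filled points passed the adjusted p of 0.05 and the 1.5-fold limit. The filled points are Meg3 in AV cells, Kcnq1ot1 in vascular endothelial cells and Snhg6 in Myoepithelial cells, and the Malat1 points lie between -0.43 and 0.33.

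Malat1 and Neat1, which had the most UMIs of the 6 RNAs, were not called in any of the 8 types. Malat1 differed by -0.43 to 0.33 on the log2 scale, with a smallest adjusted p of 0.26, and Neat1 by -0.34 to 0.53, with a smallest adjusted p of 0.27 in edgeR's test. In AV cells Malat1 had 22819, 43155 and 40715 CPM in Young A, B and C and 22449, 24615, 21995 and 19485 CPM in Aged A to D. Young A lay among the aged mice and the other young mice far above them. In HS cells the young mice were close together, at 34215, 34663 and 35606 CPM, and the aged mice ranged over 45166, 32430, 53655 and 32281 CPM. In vascular endothelial cells the Malat1 CPM of the groups did not overlap, 34348 ± 4835 in the young and 24116 ± 4534 in the aged mice, yet it was not called, and 44.8% of all genes of that fit did not overlap between the ages. Without Young A, Malat1 in AV cells differed by -0.68 on the log2 scale and was called (adjusted p = 0.036).

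Meg3 fell in AV cells by 2.96 on the log2 scale (SE 0.58, adjusted p = 0.016). Its level there was low in every mouse, 8.66, 5.40 and 31.8 CPM in Young A to C and 2.30, 1.10, 1.09 and 3.06 CPM in Aged A to D, so the groups did not overlap (25.6% of all genes did not). Without Young C the difference was -1.72 and not called. The fibroblast collagens Col1a1 and Col3a1 moved with it: together they had 101, 8.99 and 71.9 CPM in the AV cells of Young A to C and 1.97, 1.10, 0.409 and 1.45 CPM in those of Aged A to D, against 1915 to 5429 CPM in fibroblasts. The part of free or carried-over fibroblast RNA in the Meg3 difference was not tested. HS cells had Meg3 at 5.47, 2.65 and 11.4 CPM in the young and 2.44, 0.487, 0 and 4.73 CPM in the aged mice, and did not pass the filter on low counts.

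Meg3 was not called in any other type. Fibroblasts had 679, 687 and 1546 CPM in Young A to C and 234, 472, 582 and 238 CPM in Aged A to D, with no overlap (16.9% of all genes), a log2 difference of -1.33 (SE 0.36) and an adjusted p of 0.066. The aged values rest on few cells: 121, 41, 15 and 17 fibroblasts in Aged A to D. Pericytes had 854, 459 and 1111 CPM in the young and 236, 434, 526 and 420 CPM in the aged mice, which overlapped, with a difference of -0.81 (SE 0.30, adjusted p = 0.089). Vascular endothelial cells had 41.8, 36.5 and 133 CPM and 16.95, 0.698, 44.6 and 9.52 CPM, a difference of -1.59 (SE 0.67, adjusted p = 0.092), which was called in 4 of 17 alternatives. The fibroblast collagens there had 62.2, 19.1 and 59.1 CPM in the young and 7.42, 0.698, 3.57 and 1.90 CPM in the aged mice, and their part was not tested. Myoepithelial cells had 122, 299.8 and 159 CPM in the young and 213, 227, 99.99 and 248 CPM in the aged mice, and the groups overlapped. The age effect on Meg3 was higher in Myoepithelial than in AV cells by 3.30 on the log2 scale (adjusted p = 0.00076, beside 9.25% of all genes), in edgeR with the mouse as a block.

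Kcnq1ot1 rose in vascular endothelial cells by 1.23 on the log2 scale (SE 0.33, adjusted p = 0.012). The young mice were tightly placed at 37.9, 37.0 and 39.9 CPM, and the aged mice had 37.1, 53.1, 125 and 64.1 CPM. Aged A lay among the young mice and Aged C was highest, so the CPM of the groups overlapped. With library size in place of TMM the difference was 0.87 and still called (adjusted p = 0.043), and without Young A it was 1.19 and not called (adjusted p = 0.0504). In Myoepithelial cells, where Kcnq1ot1 was highest, it had 115.9 ± 36.6 CPM in the young and 106.0 ± 11.3 CPM in the aged mice, which overlapped. In AV cells it had 55.97, 64.8 and 59.1 CPM in Young A to C and 33.2, 44.2, 47.5 and 39.2 CPM in Aged A to D. The ages did not overlap there, as for 25.6% of all genes, and Kcnq1ot1 was not called.

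**Figure D3:**
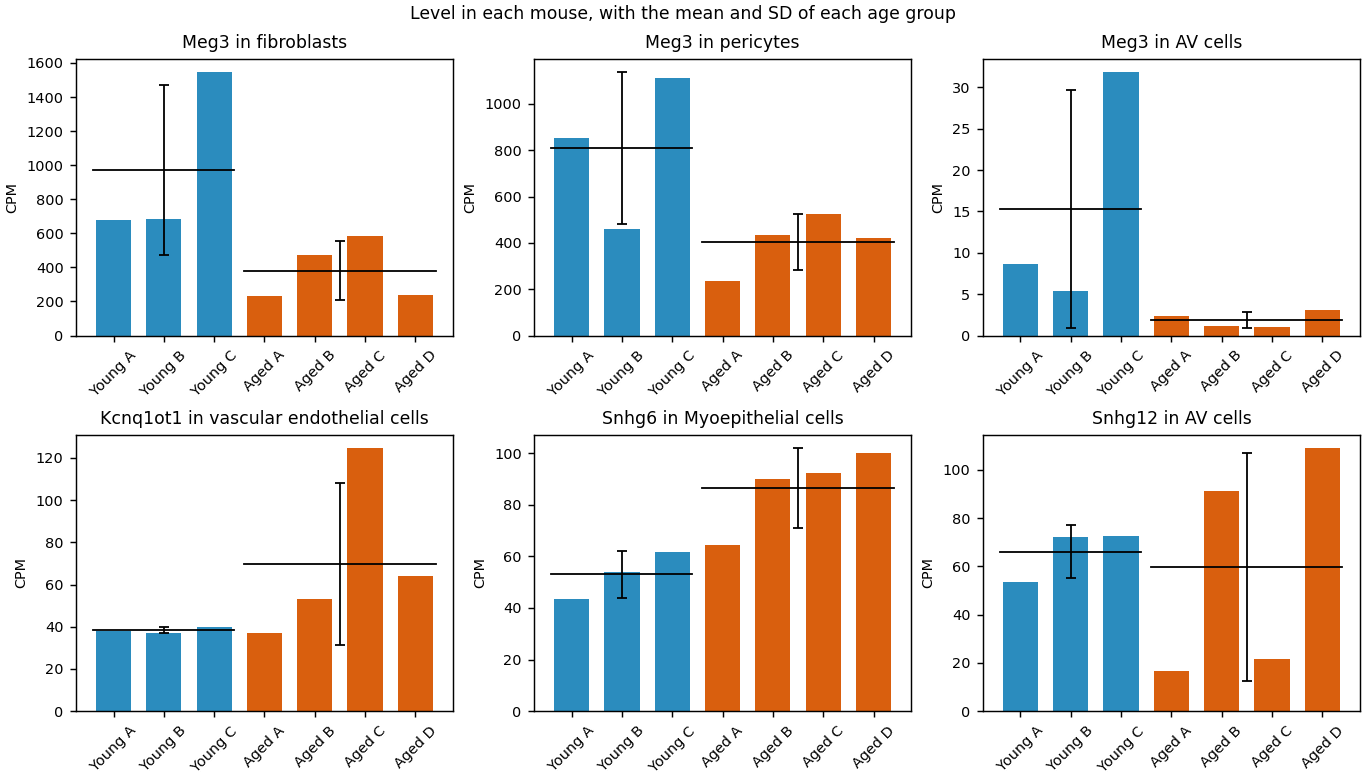
CPM (vertical axes, linear, from 0) in each mouse for 6 pairs of an RNA and a cell type; bars are mice, blue young and orange aged, horizontal lines are group means and error bars their SD (n = 3 and 4). Snhg6 in Myoepithelial cells and Meg3 in fibroblasts and AV cells do not overlap between the ages, beside 34.8%, 16.9% and 25.6% of all genes. Snhg12 in AV cells is at 16.8 and 21.7 CPM in Aged A and C and at 91.3 and 109 CPM in Aged B and D.

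Snhg6 rose in Myoepithelial cells by 0.88 on the log2 scale (SE 0.26, adjusted p = 0.018). The young mice had 43.4, 54.1 and 61.7 CPM and the aged mice 64.3, 89.9, 92.3 and 99.8 CPM, with no overlap, which 34.8% of all genes of this type shared. The difference was 0.70 and not called among cells with a mitochondrial share of 2% to 4% (adjusted p = 0.24), and it was not called without Young A (0.69) or without Aged D (0.74). In AV cells Snhg6 had overlapping groups, 64.56 ± 8.92 and 64.25 ± 6.18 CPM, and in HS cells it had 86.5 ± 22.6 in the young and 65.21 ± 3.31 CPM in the aged mice, and was not called. The age effect on Snhg6 was higher in Myoepithelial than in HS cells by 1.09 on the log2 scale (edgeR with the mouse as a block, adjusted p = 0.016, beside 9.52% of all genes). Against AV cells the difference was 0.70 and did not pass (adjusted p = 0.13). Between AV and HS cells the age effect passed for no member, beside 2.41% of all genes.

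Snhg12 was not called in any of the 5 types where it was tested, and its aged mice lay far apart. In AV cells it had 53.7, 71.9 and 72.7 CPM in Young A to C and 16.8, 91.3, 21.7 and 109 CPM in Aged A to D. Myoepithelial cells had 38.7, 68.8 and 55.2 CPM and then 14.7, 68.2, 18.5 and 99.8 CPM. HS cells had 28.4, 37.7 and 38.9 CPM and then 7.32, 44.8, 5.43 and 46.1 CPM. In each of these 3 types Aged A and Aged C were below, and Aged D above, every young mouse. Vascular endothelial cells gave 51.01, 58.8 and 53.6 CPM in the young and 9.54, 38.4, 22.3 and 48.2 CPM in the aged mice, and pericytes 22.6, 50.98 and 45.7 and then 8.42, 68.9, 5.65 and 60.04 CPM. In these types too Aged A and Aged C were the lowest mice. In vascular endothelial cells the ages did not overlap, as for 44.8% of all genes of that fit. Fibroblasts had 43.4, 71.4 and 49.7 CPM and then 6.90, 51.8, 0 and 18.3 CPM, from 4, 9, 0 and 2 UMIs in the aged mice, with a difference of -1.53 (SE 0.55, adjusted p = 0.14). No cause of the spread between the aged mice was tested.

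Genes that act with these RNAs were taken from lists, chosen with earlier results of these data known, and counted over the 8 age fits, beside the 13.0% of all gene tests called. Of 12 paraspeckle proteins, the partners of Neat1, 2 tests of 70 were called higher and 2 lower (5.71%), with list medians from -0.05 to 0.30 on the log2 scale beside -0.05 to 0.02 for all genes. Cirbp, a cold-inducible RNA-binding protein, fell in Myoepithelial cells from 142.5 ± 25.1 to 60.18 ± 9.56 CPM (log2 -1.17, adjusted p = 0.00059). Nono, a core paraspeckle protein, rose in AV cells from 115.0 ± 23.5 to 163.87 ± 7.97 CPM (adjusted p = 0.030), and Hnrnpk rose in Myoepithelial cells (log2 0.71, adjusted p = 0.0069).

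Of 12 nuclear speckle and splicing factors, 5 tests of 80 were called higher and 1 lower (7.5%), with list medians from -0.32 to 0.41. Srsf3 rose in Myoepithelial cells from 227.6 ± 65.6 to 551.8 ± 30.4 CPM (log2 1.34, adjusted p = 0.00031), Srsf2 rose in 4 types with its largest change in fibroblasts (log2 1.04, adjusted p = 0.021), both splicing factors of the SR family, and Son, a scaffold of speckles, fell in vascular endothelial cells from 509.4 ± 10.9 to 226.8 ± 24.7 CPM (log2 -0.82, adjusted p = 0.00057).

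Of 15 other snoRNA host genes 5 had a row, and 2 tests of 20 were called higher and 1 lower (15%), with medians from -0.30 to 0.32. Snhg18 fell in Myoepithelial cells from 49.41 ± 7.93 to 14.94 ± 7.53 CPM (log2 -1.65, adjusted p = 0.0027), where Snhg6 rose, and Epb41l4aos rose in AV cells (log2 1.14, adjusted p = 0.027). Of 10 snoRNA particle proteins 9 had a row, with 2 tests of 54 higher and 1 lower (5.56%) and medians from -0.46 to 0.76: Fbl, the methyltransferase of these particles, rose in vascular endothelial cells (log2 1.30, adjusted p = 0.00018), as did Nhp2 (log2 0.90, adjusted p = 0.0012), and Nop10 fell in HS cells (log2 -0.72, adjusted p = 0.023). Of the 10 nonsense-mediated decay factors, 1 test of 43 was called higher, Smg9 in Myoepithelial cells (log2 0.90, adjusted p = 0.048), and 1 lower, Upf2 in vascular endothelial cells (log2 -1.24, adjusted p = 0.0022), which is 4.65%, with medians from -0.13 to 0.14. Cytoplasmic ribosomal protein genes, 84 in all, were called higher in 112 of 644 tests and lower in 0. Of these, 77 were among the 81 tested in vascular endothelial cells, where their median was 1.00 beside -0.05 for all genes. With library size alone all genes of this fit moved by -0.36 in the median.

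Of the Meg3 domain, 4 of 5 genes had a row and 2 tests were made, both of Dlk1, the paternally expressed growth regulator of the domain. Dlk1 fell in pericytes from 110.0 ± 53.4 to 10.2 ± 11.4 CPM (log2 -2.99, adjusted p = 0.0071) and was called higher in Myoepithelial cells (log2 2.82, adjusted p = 0.0045). Of the Kcnq1ot1 domain, all 9 genes had a row, and 1 test of 25 was called higher and 2 lower (12%), with medians from -1.20 to 0.73. In vascular endothelial cells, where Kcnq1ot1 rose, Cdkn1c, an imprinted inhibitor of the cell cycle, fell from 228.9 ± 23.0 to 46.67 ± 9.71 CPM (log2 -1.94, adjusted p = 3.6e-06) and Phlda2, an imprinted growth regulator, rose from 7.33 ± 2.02 to 41.8 ± 13.0 CPM (log2 2.93, adjusted p = 2.4e-05). Tssc4 fell in HS cells (log2 -1.19, adjusted p = 0.012).

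Of 7 imprinted noncoding RNAs 4 had a row, and 2 of 4 tests were called. Airn rose in vascular endothelial cells from 14.75 ± 3.41 to 21.77 ± 5.72 CPM (adjusted p = 0.023). H19 was lower in fibroblasts, with 25.10 ± 5.41 CPM in the young mice and 0 of 942268 UMIs in the aged ones. Pooled over the aged mice, this allows up to 3.18 CPM (3 UMIs), 7.88-fold below the young mean. This limit covers counting error only and not the spread between mice. Of 25 further long noncoding RNAs 16 had a row, and 4 tests of 33 were called higher and 3 lower (21.2%), with medians from -0.42 to 0.10. Mir155hg, the host of miR-155, rose in vascular endothelial cells from 3.56 ± 2.14 to 26.20 ± 5.28 CPM (log2 3.13, adjusted p = 4.3e-05), Pvt1 rose in the same cells (log2 2.59, adjusted p = 0.00043) and Lncpint in HS cells (log2 1.51, adjusted p = 0.011).

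To relate the RNAs to the state of a cell, the cells of each mouse and type were ordered by mitochondrial share, or by number of UMIs, and the upper 1 of 3 equal parts was compared with the lower 1. Levels were the CPM over the UMIs of genes not encoded in mitochondria, compared as log2(CPM + 10), with an exact two-sided sign-flip permutation test over mice. In 5 cell types and 6 RNAs this gave 60 tests for both measures. With 7 mice the smallest possible p was 0.016, and for fibroblasts, with 5 mice, 0.062. After Benjamini-Hochberg adjustment over the 60 exact tests, 0 passed 0.05, the smallest adjusted p being 0.10. With 7 mice, 19 of the 60 tests would have to sit at the smallest p for any to pass, so the adjusted result says little of single RNAs. At an unadjusted p under 0.05 there were 9 tests for the mitochondrial share and 7 for the number of UMIs.

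Malat1 was higher in AV cells of high mitochondrial share in 7 of 7 mice, with 34572 ± 11068 against 25539 ± 9729 CPM (1.38-fold, exact p = 0.016, adjusted p = 0.10). In HS cells it was higher in 7 of 7 mice as well, with 45692 ± 6777 against 36720 ± 10235 CPM (exact p = 0.016, adjusted p = 0.10). Of all genes compared, 8.49% in AV and 7.05% in HS cells were higher in every mouse. In vascular endothelial cells it was lower in 6 of 7 mice, with a mean log2 difference of -0.08, and in Myoepithelial cells it was higher in 4 of 7. Neat1 was higher with the mitochondrial share in AV cells in 7 of 7 mice, 906 ± 273 against 653 ± 157 CPM (exact p = 0.016, adjusted p = 0.10), and in fibroblasts in 5 of 5, 876 ± 232 against 442 ± 131 CPM (1.98-fold, exact p = 0.062, the smallest 5 mice allow; 6.6% of all genes were higher in every mouse).

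Kcnq1ot1 was higher in cells of high mitochondrial share in 7 of 7 mice in each of 3 types: HS cells (57.5 ± 15.9 against 29.67 ± 9.41 CPM), AV cells (61.88 ± 12.02 against 37.34 ± 9.27 CPM) and vascular endothelial cells (81.1 ± 47.7 against 38.2 ± 19.1 CPM), each with exact p = 0.016 and adjusted p = 0.10. In Myoepithelial cells, where it was highest, it was higher in 3 of 7 mice. Meg3 in vascular endothelial cells was higher in 7 of 7 mice, 71.5 ± 65.1 against 11.4 ± 21.3 CPM (exact p = 0.016, adjusted p = 0.10), where 5.43% of all genes were higher in every mouse; the share of cells with a Meg3 UMI was low there, 5.55%. Snhg6 passed an unadjusted 0.05 in no type, and Snhg12 was lower in 6 of 7 mice in HS and in AV cells (exact p = 0.031 and 0.047). The compared HS cells differed in depth too, with mean medians of 8685 UMIs at low and 6322 at high mitochondrial share, whose part was not tested. In AV cells these were 6457 and 5940.5 UMIs.

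**Figure D4:**
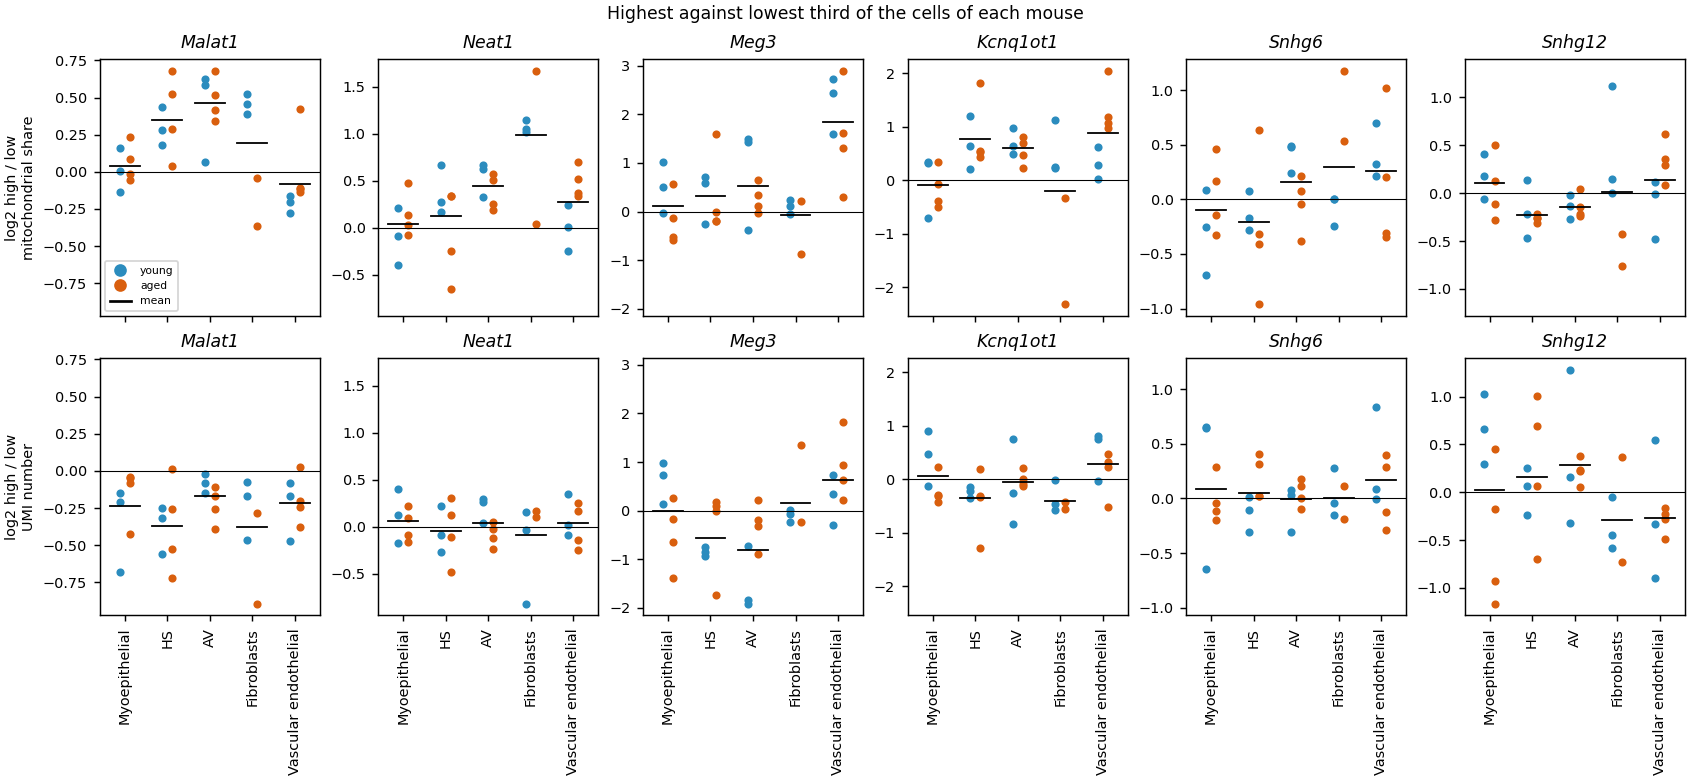
Log2 of the level in the upper over the lower of 3 equal parts of the cells of a mouse (vertical axes, 10 CPM added), ordered by mitochondrial share (top row) or number of UMIs (bottom row), for 6 RNAs in 5 cell types; points are mice, blue young and orange aged, and lines are means. All 7 points of Kcnq1ot1 lie above 0 for the mitochondrial share in HS, AV and vascular endothelial cells, and all 7 points of Malat1 lie below 0 for the number of UMIs in Myoepithelial and AV cells.

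When cells were ordered by the number of UMIs, the level of Malat1 was lower in the cells with more UMIs in 7 of 7 mice in Myoepithelial cells (21664 ± 3799 against 25759 ± 6077 CPM, exact p = 0.016, adjusted p = 0.10) and AV cells (27326 ± 9482 against 30442 ± 9309 CPM, exact p = 0.016, adjusted p = 0.10), in 6 of 7 in HS and in vascular endothelial cells, and in 5 of 5 in fibroblasts. Kcnq1ot1 was lower in 5 of 5 in fibroblasts too, 52.8 against 72.1 CPM (exact p = 0.062, the smallest 5 mice allow). Of all genes, 1.3% in Myoepithelial, 4.87% in AV and 4.86% in fibroblast cells were lower in every mouse. Neat1, next to it on the chromosome, had mean log2 differences of -0.08 to 0.06 over the 5 types, with 3 or 4 mice above 0 in each. Snhg6 differed by 0.17 or less in its mean over the 5 types.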

How the data were processed

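Libraries of 10x 3′ v2 chemistry were made from single mice, and reads were aligned by the authors to mm10 with Cell Ranger (version 2.0 per the labels). The deposited matrix held unnormalized UMI counts after the authors' own limits on cell quality. The deposited cell table gave the cell type, the UMIs per cell as counts, and the mitochondrial share as a fraction. Doublets were not called again, since the study had assessed them.

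Counts were added up wherever a mouse had 3 or more cells of a type, then filtered with filterByExpr, scaled by TMM and tested in edgeR 4.0.16 (R 4.3.3) by the quasi-likelihood method. The members and lists were chosen with earlier results of these data known. The text names the members, the 3 genes most like each over cell types, and up to 3 called genes per list with the largest change. For Neat1, 1 of these genes is not reported here. Differences of age effects between epithelial types were tested with the mouse as a block. Cell-state comparisons needed at least 30 cells per mouse, and thinning was to 2000 UMIs per cell. The scripts were tested on simulated data. Ends and positions are from GENCODE vM21 on GRCm38, and start windows from RefSeq, where Neat1 and Snhg6 had no entry in the table used. Other software was DESeq2 1.42.0 (an alternative), scipy 1.17.1 and pandas 2.3.3. Each p measures the spread between mice.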

Additional observations from a re-analysis of the deposited data

Results flagged for a closer look

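The effect of age differed between epithelial types for 2 of the RNAs, by a test of the difference itself in edgeR with the mouse as a block. For Snhg6 the log2 difference between aged and young mice was higher in Myoepithelial than in HS cells by 1.09 (adjusted p = 0.016), beside 9.52% of all genes at an adjusted p under 0.05, and than in AV cells by 0.70, which did not pass (adjusted p = 0.13). For Meg3 it was higher in Myoepithelial than in AV cells by 3.30 (adjusted p = 0.00076), beside 9.25% of all genes. Meg3 did not pass the filter on low counts in the fit of HS cells alone. In the joint fit its age effect was higher in Myoepithelial than in HS cells by 2.30 (adjusted p = 0.035, beside 9.52% of all genes). Meg3 levels in HS cells were only 0 to 11.4 CPM per mouse. Between AV and HS cells no member passed (2.41% of all genes). There Malat1 differed by -0.66 (unadjusted p = 0.023, adjusted p = 0.24). The collagen values given beside Meg3 in AV cells stand beside the Meg3 comparison of Myoepithelial and AV cells too, and their part was not tested.

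Among the 4 aged mice, 1 mouse stood far from the other 3 in 6 of 48 sets of an RNA and a cell type. For normally spread values chance gives about 1 in 20. Malat1 in vascular endothelial cells was lowest in Aged D, at 17370 CPM, beside 25612.5 to 27019 CPM in the other 3. The other 5 rest on few UMIs. Where 3 mice are at 0, any UMI in the remaining mouse flags it, so the 1 in 20 does not apply to such sets. In Mb macrophages Meg3 (13.1 CPM) and Kcnq1ot1 (39.3 CPM) were found in Aged A and Snhg12 (41.0 CPM) in Aged D, each with 0 in the other 3, while Snhg6 was at 0 in Aged B and at 38.7 to 41.0 CPM in the others. In T and B cells Meg3 was found in Aged B (12.2 CPM) alone.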

How the results depend on the processing

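Of 38 pairs 3 were called with age. There were 1 with counts thinned to equal totals, 1 among cells with 2% to 4% mitochondrial UMIs, 8 without the filter on low counts, where Meg3 in HS cells was also called (log2 -2.01), and 6 with library size alone, an alternative chosen after seeing the data. Leaving out each mouse gave 2 to 4. Kcnq1ot1 in vascular endothelial cells was called in 16 of 17 alternatives, Meg3 in AV cells in 14 of 15 and Snhg6 in Myoepithelial cells in 12 of 17. The 15 leave out thinning to equal totals and cells with 2% to 4% mitochondrial UMIs. There Meg3 in AV cells did not pass the filter on low counts, so it could not be called. Not every alternative could undo the 3 calls. Dropping the fold minimum reuses the same fit, and asking for at least 10 cells per mouse left the counts of these types unchanged. Of those not called, Meg3 was called in 4 of 17 in vascular endothelial cells, 3 of 17 in fibroblasts and 3 of 17 in pericytes, Snhg12 in 2 of 16 in fibroblasts and Malat1 in 1 of 17 in AV cells. The 10 pairs with an unadjusted p under 0.1 kept their sign throughout, and 17 of the other 28 changed it under at least 1 alternative. Genes called with age fell with thinning to 644 (Myoepithelial), 287 (HS), 212 (AV), 47 (fibroblasts), 162 (pericytes) and 1 (T and B), and within 2% to 4% mitochondrial share to 719, 171, 157, 21, 50 and, in Mb macrophages, 2, from 1860, 529, 678, 175, 307, 3 and 10. Without the filter they were 1215 (HS), 582 (fibroblasts), 560 (pericytes), 71 (Mb) and 44 (T and B), with DESeq2 45 (Mb) and 7 (T and B), and with library size alone 1039 (AV). Leaving out each mouse gave 977 to 1829 (Myoepithelial, lowest without Young A), 134 to 554 (HS) and 201 to 619 (AV, both lowest without Young C), 68 to 150 (fibroblasts, lowest without Aged A), 128 to 347 (pericytes, lowest without Young A), 2 to 9 (Mb) and 1 to 4 (T and B). Library size alone moved the share of calls that were higher from 46.4% to 36.2% (Myoepithelial), 62.8% to 39.2% (HS), 47.1% to 18.1% (AV), 65.1% to 49.5% (fibroblasts), 55.0% to 22.4% (vascular endothelial), 60.9% to 34.3% (pericytes) and 80% to 62.5% (Mb). The cause of these changes was not tested, except that thinning and the share limits use fewer counts or cells.

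The letters shared by young and aged mice name different animals. Deviations of mice with the same letter correlated from -0.17 to 0.37 over types, so the letters do not pair them. With the letter as replicate block the calls were 165 (HS), 424 (AV), 30 (fibroblasts), 184 (pericytes) and 35 (Mb), and Snhg6 in Myoepithelial cells was not called. Snhg12 then differed by -0.83 in Myoepithelial and -0.82 in AV cells, where it had been 0.27 and 0.13. No young mouse has the letter D, so the age difference under the block leaves out Aged D. Aged D was the highest mouse for Snhg12 in both types. In vascular endothelial cells Snhg12 (log2 -0.96) and Meg3 (log2 -1.70, adjusted p = 0.026) were called under the block.

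Tests between cells of high and low mitochondrial share or UMI number gave 0 calls under the alternatives run, which says nothing of stability: 19 of 60 tests at the smallest p were needed with 7 mice, and 38 with 6. With every cell thinned to 2000 UMIs 2 of the 16 with an unadjusted p under 0.05 changed sign, Snhg12 in HS cells to 0.14 by mitochondrial share and Kcnq1ot1 in HS cells to 0.20 by UMI number, and 20 of the other 44 changed it under at least 1 alternative. With 3 and 4 mice, RNAs of under 100 CPM and types of few cells, small differences were not detectable at this depth.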
